A study of Mus musculus with 6 samples.

Results

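Heat shock proteins (HSPs) and their DNAJ cochaperones were described in fresh mouse splenocytes, the total cells of the spleen, of wild-type and Top3b-knockout genotype. The members were all gene symbols of the deposited count table that begin with Hspa, Hspb, Hsp90, Hspd, Hspe or Hsph, or with Dnaja, Dnajb or Dnajc followed by a number, which gave 71 of 56413 symbols. They comprised 11 HSP70 genes, 3 HSP110 genes, 3 HSP90 genes, 2 mitochondrial chaperonin genes, 7 small HSP genes, 4 DNAJA, 13 DNAJB and 26 DNAJC genes. The rule also took in 2 genes whose names begin alike but which are not HSPs, Hspbp1, a nucleotide exchange factor of HSP70, and Hspbap1, named for its binding to a small HSP.

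Ribosomal-RNA-depleted total RNA was sequenced from 3 libraries of wild type, called WT, and 3 of the Top3b knockout, called Top3b-KO, to compare transcriptomes with and without topoisomerase III-beta, the enzyme that Top3b encodes. No treatment is listed for either group, and the sources used here do not give strain, age, sex or the way the knockout was made. The labels do not say that replicates came from separate animals, so p-values measure the spread between these libraries, which may be technical. Splenocytes are a mixture, and in bulk RNA fewer cells of a type and less RNA per cell cannot be told apart.

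Total counts ranged from 9941014 in Top3b-KO replicate 3 to 25473404 in Top3b-KO replicate 2. Top3b was at 95.1, 86.9 and 91.0 CPM (counts scaled to a common library total with TMM factors) in WT and at 51.5, 48.2 and 49.7 CPM in Top3b-KO, so it was lower but still counted in each knockout library. The 5 B cell and the 5 T cell markers each had a mean of at least 10 CPM, whereas the 5 testis markers summed to between 0.123 and 0.708 CPM per library. Neutrophil and erythroid markers varied most between libraries, with sums of 418 to 1410 CPM for 5 neutrophil genes and 738 to 1585 CPM for 5 erythroid genes.

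HSP70 proteins bind short hydrophobic stretches of unfolded proteins in a cycle driven by ATP. DNAJ proteins deliver clients and stimulate the ATPase through their J domain, and nucleotide exchange factors such as the HSP110 proteins reset the cycle. HSP90 takes over clients close to their native state, many of them kinases and receptors of lymphocyte signalling, and the small HSPs hold unfolded proteins without ATP. Under protein stress in the cytosol, heat shock factor 1 (HSF1) raises the transcription of a subset of these genes. It binds repeats of the unit GAA in alternating orientation. In the endoplasmic reticulum (ER) a separate set answers to the unfolded protein response, and that set is known to be abundant in antibody-secreting plasma cells.

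Upstream sequences are shown for members whose counts varied together between libraries or that share a place in the cell. They were taken from RefSeq on build GRCm38.p6, which matched 58 of the 71 members by symbol and which differs from the build mm39 of the counts. The stress-inducible HSP70 pair Hspa1a (chr17:34972157-34972287, minus strand) and Hspa1b (chr17:34959239-34959369, minus strand) is shown because these were the tested members with the widest spread. The bases run from 131 to 1 before each start, and the capitals mark a head-to-head pair of GAA units, GAANNTTC.
Hspa1a: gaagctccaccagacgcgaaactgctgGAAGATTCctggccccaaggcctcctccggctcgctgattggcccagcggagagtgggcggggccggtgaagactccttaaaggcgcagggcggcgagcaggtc
Hspa1b: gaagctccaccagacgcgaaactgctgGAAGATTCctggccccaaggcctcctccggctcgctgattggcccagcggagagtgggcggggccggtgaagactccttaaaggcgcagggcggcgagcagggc
Over the 250 bases before their starts, the pair was identical at 247 and differed at 3. Their transcripts overlap in sequence as well. Of all stretches of 101 bases in Hspa1a transcripts, 46.9% also occur in Hspa1b, and 49.7% of those of Hspa1b occur in Hspa1a, so the split of counts within the pair is uncertain.

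Hspe1 and Hspd1, which encode the HSP10 and HSP60 of the mitochondrial folding chamber, lie head to head on chromosome 1. A single stretch of GAA units stood 89 to 72 bases before the start of Hspe1 and 144 to 127 bases before one of the starts of Hspd1. It is printed as read for Hspe1 (chr1:55088053-55088082, plus strand, GRCm38.p6), with the overlapping three-unit motifs in capitals.
Hspe1: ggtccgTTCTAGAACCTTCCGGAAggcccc
For 3 ER chaperones the capitals mark the ER stress element CCAAT-N9-CCACG, in either orientation, and for Hsp90b1 the nearer of 2 matches. They are Hspa5 (chr2:34772000-34772059, plus strand), Hsp90b1 (chr10:86705515-86705574, minus strand) and Dnajc3 (chr14:118937802-118937861, plus strand), all on GRCm38.p6.
Hspa5: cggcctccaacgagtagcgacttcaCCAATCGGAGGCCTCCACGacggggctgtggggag
Hsp90b1: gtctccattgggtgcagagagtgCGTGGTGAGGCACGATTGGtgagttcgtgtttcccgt
Dnajc3: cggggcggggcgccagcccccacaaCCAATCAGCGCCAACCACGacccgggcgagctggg

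Each motif was searched on both strands in the 250 bases before every start. The three-unit motif (GAA, any 2 bases, TTC, any 2 bases, GAA) stood before 3 of 58 members (5.17%), Dnajb6, Hspd1 and Hspe1, and before 0.514% of the 27025 genes with a window. The shorter GAANNTTC, which the three-unit motif contains, stood before 11 of 58 members (19.0%) and 7.73% of all genes. TTCNNGAA, the tail-to-tail pair that the three-unit motif also contains, stood before 6 members (10.3%), among them Dnajb4 and Hsph1, and 8.11% of all genes. The ER stress element stood before 3 members (5.17%), the ones printed, and 0.13% of all genes. Only exact units were matched, so an element with an imperfect unit was not counted. A match is a description of the letters in this window and not of binding.

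The family made up between 0.844% and 0.931% of all counts in each library. Summed over the 71 members, the level was 9246, 8567 and 8409 CPM in WT against 9140, 9389 and 8816 CPM in Top3b-KO, and the groups overlapped. Hsp90ab1, Hspa8, Hspa5, Hsp90aa1 and Hsp90b1 together held 53.3% of this sum. Of the 71 members, 52 had a mean of at least 10 CPM. Another 12 lay lower and were still tested, which left 64 tested members, and 7 did not pass the filter on low counts.

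Per kilobase of merged exons, the constitutive cytosolic HSP90 gene Hsp90ab1 stood highest, at 530 CPM per kb in WT and 565 in Top3b-KO. Next came the constitutive HSP70 gene Hspa8, at 291 and 286 CPM per kb. Hspa5, the HSP70 of the ER (BiP), was at 211 and 222 CPM per kb. These lengths come from GENCODE M21, and 28.4% of the 101-base stretches of Hspa8 and 37.8% of those of Hsp90aa1 also occur in other annotated genes, pseudogenes included. Ranks among such genes are therefore uncertain.

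**Figure D1:**
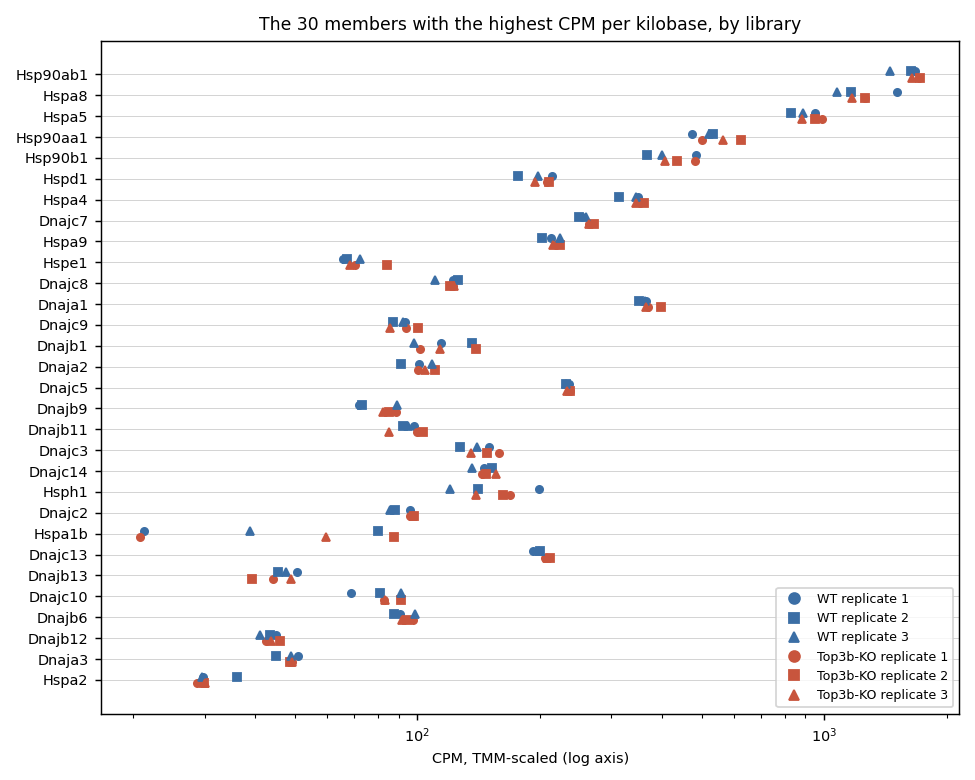
CPM on a log axis for the 30 tested members with the highest level per kilobase, 1 point per library, WT in blue and Top3b-KO in red, with the replicate number as the symbol. Hspa1b is the row in which the libraries lie farthest apart, from 20.8 to 87.5 CPM, while the points of Dnajc5 lie between 232 and 238 CPM.

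No member passed the threshold between genotypes. Among 64 tested members the quasi-likelihood test of edgeR gave 0 with a Benjamini-Hochberg adjusted p under 0.05, the adjustment running over all 18716 tested genes, of which 0.0107% passed. By DESeq2 and limma-voom the count was also 0. At an unadjusted p under 0.05 edgeR gave 2 members, Dnajb4 and Dnajc4, DESeq2 gave 1 and limma-voom 2. By edgeR 5.52% of all tested genes were under that p, a share not counted for DESeq2 or limma-voom. Dnajb4 was higher in Top3b-KO, as were 1.83% of all tested genes at that p, and Dnajc4 was lower, as were 3.69%. The lowest adjusted p among members was 0.856 by edgeR. A fitted difference of less than 1.2-fold was found for 59 of the 64 members and for 15657 of the 18716 tested genes. At a mean level of 10 CPM or more it was found for 50 of 52 members and 9475 of 9669 genes.

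Dnajb4, a class B J protein of the cytosol, was at 24.6, 28.3 and 28.6 CPM in WT against 27.6, 35.9 and 34.2 CPM in Top3b-KO. Top3b-KO replicates 2 and 3 lay above every WT library, and replicate 1 lay within the WT range. The log2 fold change was 0.26 (SE 0.10, n = 3 per group) and the adjusted p 0.856 by edgeR. Without Top3b-KO replicate 2 it was 0.175, and without WT replicate 1 it was 0.19.

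Dnajc4 was at 12.5, 10.7 and 11.1 CPM in WT against 8.81, 9.70 and 10.1 CPM in Top3b-KO. Each knockout library lay below each WT library. Its log2 fold change was -0.27 (SE 0.12, n = 3 per group) and its adjusted p 0.895 by edgeR.

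Signs leaned upward across the family. The log2 fold change was above 0 for 45 of 64 tested members (70.3%), against 49.1% of all tested genes, and the median was 0.046 against -0.0029. At a mean level of 10 CPM or more, the shares were 75.0% of 52 members and 52.2% of 9669 genes. These counts are a description and carry no test. Some sets of cell type markers leaned by genotype as well, though none of their genes passed the threshold by edgeR. Log2 fold changes were above 0 for 5 of 5 T cell markers (median 0.061) and below 0 for 5 of 5 B cell (median -0.032), 5 of 5 erythroid (median -0.335) and 5 of 5 red pulp macrophage markers (median -0.106). Plasma cell markers were below 0 for 4 of 4. Neutrophil markers were mixed, with 2 of 5 above 0 (median -0.031). The part of these cell types in the lean of the family was not tested. Leaving out WT replicate 2 lowered the member count to 38 and the median to 0.021, and without Top3b-KO replicate 3 the median was 0.079. The same values over all tested genes were not taken for these fits.

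**Figure D2:**
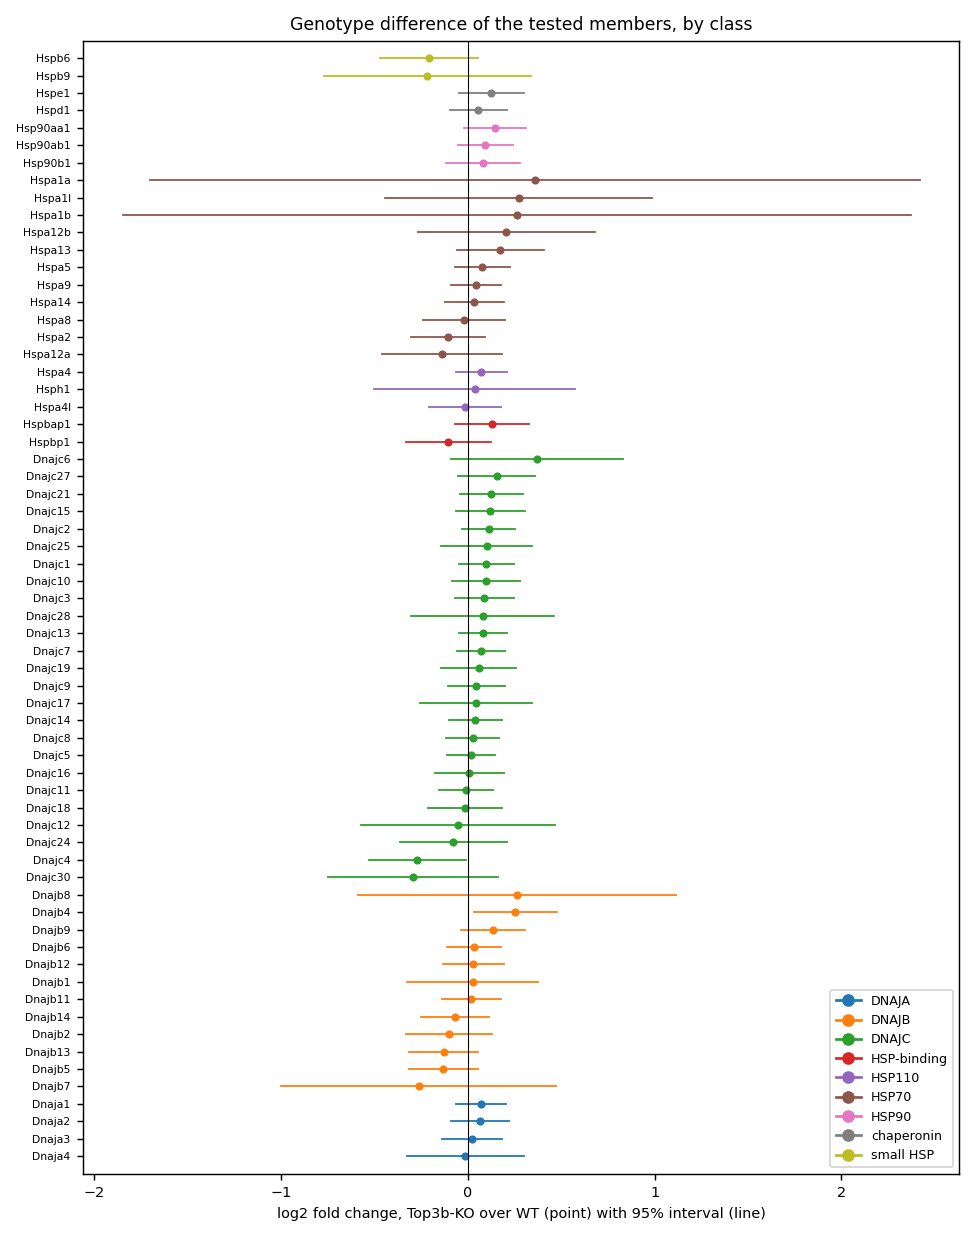
Log2 fold change of Top3b-KO over WT for the 64 tested members, grouped by class, with the fitted value as a point and its 95% interval as a line. Nearly all intervals cross 0, those of Dnajb4 and Dnajc4 lie just to one side, and those of Hspa1a and Hspa1b are the widest.

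In 7 of 64 tested members (10.9%) all 3 libraries of one group exceeded all 3 of the other group, as they did for 11.0% of all tested genes. The 4 that were higher in Top3b-KO (5.39% of all tested genes) were Dnaja1, Dnajc2, Dnajc7 and Dnajc13. Dnaja1, the main class A partner of Hspa8, was at 364, 350 and 363 CPM in WT against 369, 397 and 365 CPM in Top3b-KO. The highest WT and the lowest knockout library thus nearly met. Dnajc2, which acts on HSP70 at the ribosome, went from 89.9 ± 5.35 to 97.2 ± 1.24 CPM (SD, n = 3). Dnajc7, which binds both HSP70 and HSP90, went from 254 ± 4.71 to 267 ± 3.81 CPM, and Dnajc13, an endosomal J protein, from 198 ± 4.29 to 209 ± 3.12 CPM. The 3 that were lower (5.63% of all tested genes) were Dnajc4, Dnajb5 (29.9 ± 1.60 and 27.4 ± 1.18 CPM) and the small HSP Hspb6 (12.0 ± 1.30 and 10.3 ± 0.773 CPM). None of these 7 passed the threshold by edgeR, with adjusted p between 0.895 and 0.944.

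For the inducible HSP70 pair, libraries of the same genotype differed by more than the genotype means did. Hspa1a was at 7.23, 29.1 and 15.5 CPM in WT against 9.05, 34.6 and 22.9 CPM in Top3b-KO. Hspa1b, its neighbour on chromosome 17, was at 21.3, 79.8 and 38.7 CPM in WT against 20.8, 87.5 and 59.7 CPM in Top3b-KO. In both genotypes replicate 1 was lowest and replicate 2 highest for both genes.

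For Hspa1a the highest library stood 4.78-fold above the lowest, and for Hspa1b 4.20-fold. A range of at least 4-fold occurred in 7 of the 9669 tested genes at a mean level of 10 CPM or more (0.0724%), and Hspa1a and Hspa1b were 2 of these 7. Both limits were set after the values were seen, and the 4-fold limit lies just under the ranges of the pair, so its place among the 7 is a description. The rest were Ighg1 and Ighg3, which encode immunoglobulin heavy chain constant regions, Slc15a2, Mir6236 and Gm43305. Hspa1b contributed between 69.7% and 74.7% of the pair's summed CPM in every library, so both genes moved nearly in proportion. These counts can be shared between the genes, as given above.

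The genotype difference of the pair did not exceed this spread. The labels do not say whether libraries of the same number share a batch. Mean Hspa1a was 17.3 ± 11.0 CPM in WT and, in Top3b-KO, 22.2 ± 12.8 CPM (SD, n = 3). Its log2 fold change was 0.36 (SE 0.76), with a 95% interval of -1.70 to 2.42 and an adjusted p of 0.98 by edgeR. Mean Hspa1b was 46.6 ± 30.1 and 56.0 ± 33.5 CPM, and its log2 fold change 0.26 (SE 0.77), with an interval of -1.84 to 2.37 and an adjusted p of 0.98 by edgeR. Changes of 2-fold in either direction lie inside both intervals. Without Top3b-KO replicate 2 both log2 fold changes were below 0, at -0.20 and -0.27. Without WT replicate 1 they were -0.011 and -0.086, and without WT replicate 2 they were 0.96 and 0.90.

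Other cells' markers were set beside the pair. The pair summed to 28.5, 109 and 54.2 CPM in WT against 29.9, 122 and 82.6 CPM in Top3b-KO. The 5 neutrophil markers summed to 590, 1044 and 711 CPM in WT against 418, 574 and 1410 CPM in Top3b-KO, and the 5 erythroid markers to 900, 1585 and 1031 CPM and 1057, 738 and 825 CPM. Both marker sums followed the order of the pair among WT libraries but not among Top3b-KO libraries. The 19 immediate early genes, which cell handling can induce, summed to 4012, 3966 and 3665 CPM in WT against 3935, 3667 and 3701 CPM in Top3b-KO, in neither case in the order of the pair. Their part in the spread of Hspa1a and Hspa1b was not tested.

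**Figure D3:**
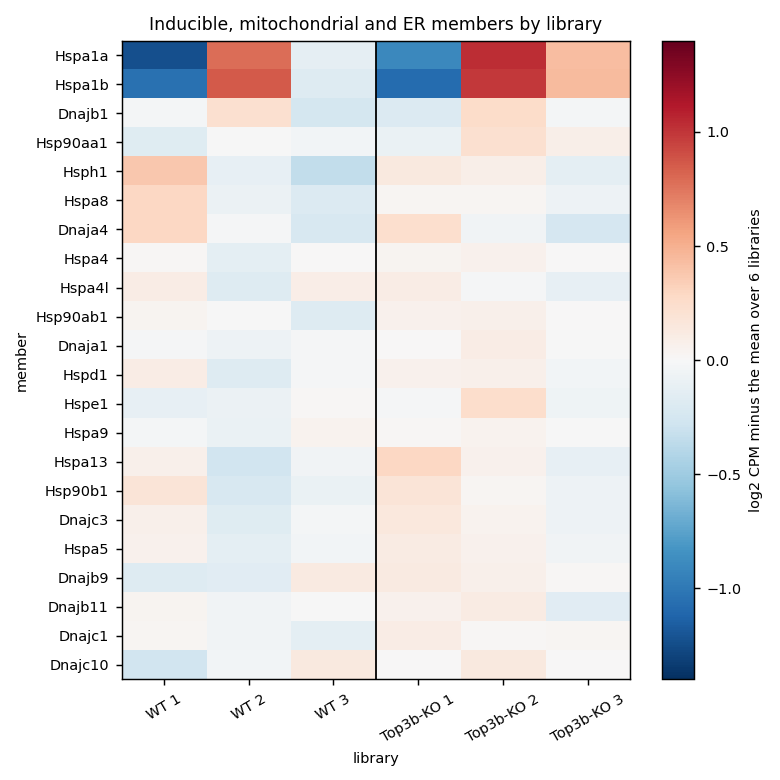
Log2 CPM minus the mean over the 6 libraries for 22 members, 1 column per library and WT to the left of the line, chosen after their values were seen. Hspa1a and Hspa1b carry the deepest colours, low in replicate 1 and high in replicate 2 of both genotypes, while Hsph1, Hspa8 and Dnaja4 are highest in WT replicate 1.

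Other members that take part in the cytosolic heat shock response, together with the constitutive Hspa8, had narrower ranges. Dnajb1, the J protein partner of Hspa1a (HSP40), was at 114, 136 and 98.3 CPM in WT against 102, 139 and 114 CPM in Top3b-KO. Hsp90aa1, the inducible cytosolic HSP90, was at 473, 532 and 522 CPM in WT against 501, 624 and 564 CPM in Top3b-KO. Both were highest in replicate 2 of each genotype, as the pair was, but over a range of 1.42-fold and 1.32-fold only.

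Hsph1, an HSP110 exchange factor, was at 199, 141 and 120 CPM in WT against 169, 163 and 139 CPM in Top3b-KO. Hspa8 was at 1509, 1162 and 1078 CPM in WT against 1260, 1259 and 1172 CPM in Top3b-KO. In both genes WT replicate 1, where Hspa1a was lowest, stood above every other library.

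None of these 4 genes passed the threshold between genotypes by edgeR. Hsp90aa1 had a log2 fold change of 0.15 (SE 0.079), with a 95% interval of -0.020 to 0.31 and an adjusted p of 0.915 by edgeR. For Dnajb1 it was 0.027 (SE 0.15) and for Hspa8 -0.022 (SE 0.10), both at an adjusted p of 0.989 by edgeR. Hsph1 had 0.037 (SE 0.21), and without WT replicate 1 it had 0.27.

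Counted over 63 tested members with a mean of at least 1 CPM, replicate 1 was the highest library in both genotypes for 13 (20.6%), against 15.1% of all such genes. Replicate 2 was highest in both for 8 members (12.7%, against 8.47%), and replicate 3 for 1, Dnajc21 (1.59%, against 12.0%). A range of at least 2-fold occurred in 4 of the 63 (6.35%), Hspa1a, Hspa1b, Hspa1l and Dnajb7, against 10.3% of all such genes. These counts were chosen after the values were seen.

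**Figure D4:**
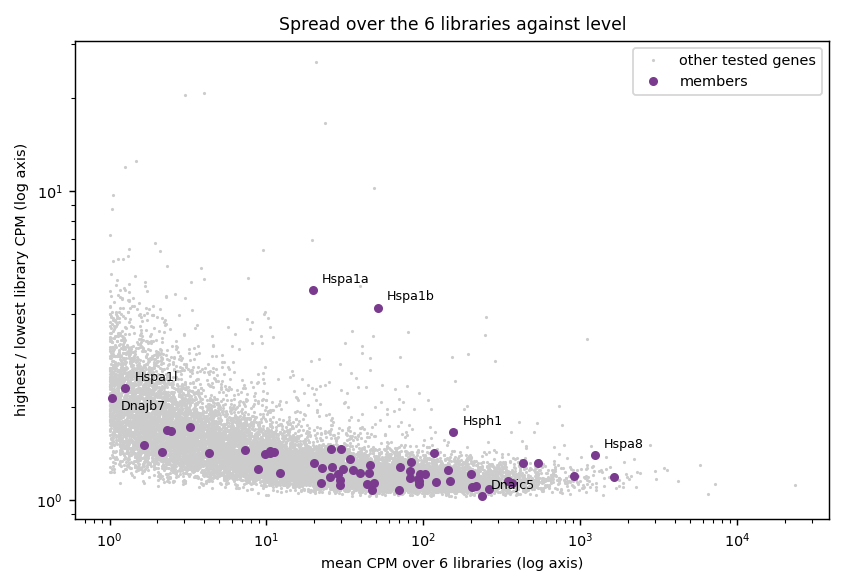
Ratio of the highest to the lowest library against mean CPM, both on log axes, for tested genes averaging 1 CPM or more, members in purple and other genes in grey. Hspa1a at 4.78 and Hspa1b at 4.20 stand above nearly all genes of like level, while most members lie inside the grey band, down to Dnajc5 at 1.03.

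Most of the family was steady. Among the 52 members at 10 CPM or more the median range over 6 libraries was 1.22-fold, where all 9669 genes of that level had 1.21-fold. Dnajc5, the cysteine string protein of secretory vesicles, had the narrowest range among tested members, from 232 to 238 CPM. Hspa14, a ribosome-associated HSP70, ranged from 45.6 to 49.0 CPM, and Dnajc11 of the mitochondrial membranes from 67.4 to 72.6 CPM.

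The 8 members listed for the ER lumen all had log2 fold changes above 0, and none passed the threshold by edgeR. The 8 were Hspa5, Hspa13, Hsp90b1, Dnajb9, Dnajb11, Dnajc1, Dnajc3 and Dnajc10, with a median of 0.092 and a span of 0.020 to 0.17. The list may not hold every ER member. It leaves out genes such as Dnajb12 and Dnajb14 of the ER membrane, whose J domains face the cytosol and which had 0.030 and -0.069. Hspa5 was at 952, 831 and 889 CPM in WT against 989, 949 and 881 CPM in Top3b-KO. Its log2 fold change was 0.078 (SE 0.071) and the adjusted p 0.944 by edgeR.

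Hsp90b1, the ER HSP90 known as GRP94 that folds integrins and Toll-like receptors, was at 484, 367 and 400 CPM in WT against 482, 435 and 406 CPM in Top3b-KO. Dnajc3, an ER cochaperone of BiP that also restrains a kinase of the stress response, was at 150, 127 and 140 CPM in WT against 159, 148 and 136 CPM in Top3b-KO. For both genes replicate 1 was the highest in each genotype and the groups overlapped. Dnajb9, which recruits BiP to the stress sensor IRE1, was at 71.7, 73.1 and 89.0 CPM in WT against 88.8, 85.2 and 82.5 CPM in Top3b-KO. On the log2 scale it differed by 0.14 (SE 0.082).

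Hspa13, another ER HSP70, had the greatest ER difference, 24.2 ± 2.84 CPM in WT against 27.0 ± 3.81 CPM in Top3b-KO (SD, n = 3), and on the log2 scale 0.17 with an adjusted p of 0.915 by edgeR. Dnajb11, which binds nascent immunoglobulin chains with BiP, was nearly level at 95.2 ± 2.97 and 96.1 ± 9.59 CPM. The disulphide reductase Dnajc10 had 0.097 and Dnajc1 had 0.100 on the log2 scale. Leaving out WT replicate 2 reduced the ER genes above 0 from 8 to 6.

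The summed plasma cell markers fell in the order of the summed ER members. The 4 markers Jchain, Xbp1, Sdc1 and Mzb1 summed to 345, 236 and 260 CPM in WT against 338, 263 and 207 CPM in Top3b-KO. The 8 ER members summed to 1934, 1671 and 1803 CPM in WT against 2021, 1922 and 1780 CPM in Top3b-KO, in the same order within each genotype. Replicate 1 was highest for both sums in both genotypes. The order was not particular to plasma cell markers. The 5 red pulp macrophage markers fell in it too, at 437, 367 and 372 CPM in WT against 384, 358 and 319 CPM in Top3b-KO. So did the sum of 12 mitochondrial chaperones and proteases outside the families. Of the red pulp macrophage markers, Vcam1, Slc40a1 and Spic each followed the ER order in both genotypes, with Vcam1 nearly level between WT replicates 1 and 3. Cd5l and Hmox1 followed it in Top3b-KO but were lowest in WT replicate 3. The plasma cell markers had a median log2 fold change of -0.12 between genotypes, below 0 for 4 of 4, while the ER members were above 0. Jchain made up most of the marker sum and alone among the 4 followed the ER order in both genotypes. It was at 236, 147 and 170 CPM in WT against 237, 175 and 120 CPM in Top3b-KO. Sdc1 (13.4, 15.1 and 12.2 CPM) and Mzb1 (5.49, 5.57 and 5.21 CPM) were highest in WT replicate 2, where the ER sum was lowest. Xbp1, which also encodes a factor of the unfolded protein response, followed the ER order in WT but not in Top3b-KO. The part of plasma cells or of red pulp macrophages in the ER members' levels was not tested.

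**Figure D5:**
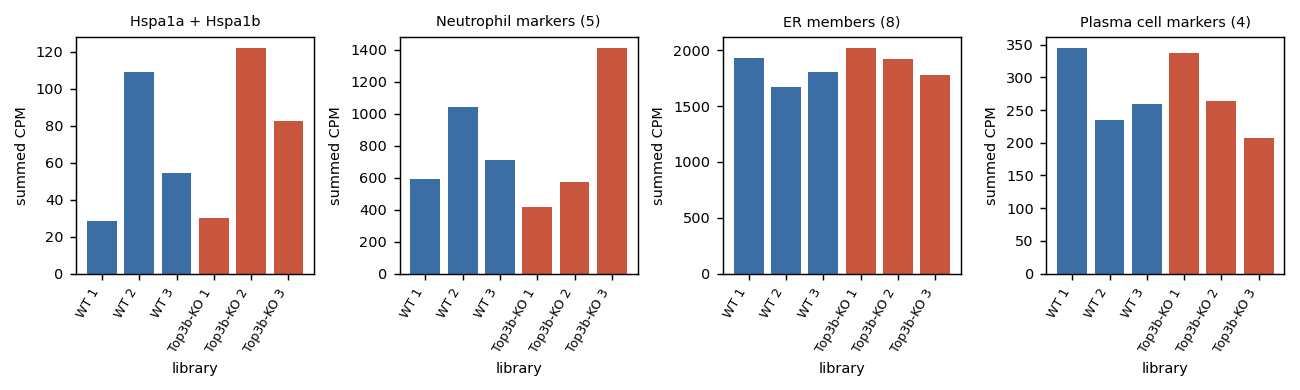
Summed CPM per library for Hspa1a with Hspa1b, 5 neutrophil markers, 8 ER members and 4 plasma cell markers, as bars from 0 with WT in blue and Top3b-KO in red. The ER members and the plasma cell markers fall in the same order within each genotype. Red pulp macrophage markers, which are not shown, share that order. The pair is highest in replicate 2 of both genotypes.

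Hsp90ab1 was at 1677, 1635 and 1451 CPM in WT against 1711, 1725 and 1647 CPM in Top3b-KO, so that WT replicate 3 stood lowest and the groups overlapped. The fitted log2 fold change was 0.094 (SE 0.070), with a 95% interval of -0.054 to 0.24.

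Mitochondrial members had a median log2 fold change of 0.057 over 9 genes, 7 of them above 0. Hspd1 was at 215, 177 and 198 CPM in WT against 208, 211 and 194 CPM in Top3b-KO. Hspe1, which shares its upstream region, was at 65.7, 67.0 and 72.1 CPM in WT against 70.3, 84.1 and 68.4 CPM in Top3b-KO. Among Top3b-KO libraries the 2 genes fell in the same order, replicate 2 highest and replicate 3 lowest, but among WT libraries Hspd1 was highest in replicate 1 and Hspe1 in replicate 3. Of the 101-base stretches of Hspd1, 23.6% occur in other annotated genes, mainly its pseudogene Hspd1-ps3, which itself had between 10 and 27 counts per library.

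Hspa9, the mitochondrial HSP70 (mortalin), had 213 ± 10.6 CPM in WT against 220 ± 4.10 CPM in Top3b-KO (SD, n = 3). Its J protein Dnaja3 had 48.2 ± 3.01 and 48.9 ± 0.260 CPM. Dnajc19, of the import motor, had 24.9 ± 2.04 and 25.8 ± 1.58 CPM. None of these log2 fold changes exceeded 0.06, and the farthest mitochondrial member was Dnajc30, at -0.29 (SE 0.22) with 30 to 90 counts per library.

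Further cytosolic and nuclear members had overlapping groups. Dnaja2 had 100 ± 8.62 CPM in WT against 105 ± 5.03 in Top3b-KO (SD, n = 3). Dnajb6, which holds back aggregation of polyglutamine proteins, had 92.3 ± 5.61 and 94.4 ± 2.86 CPM, and the spliceosome-associated Dnajc8 had 120 ± 7.98 and 122 ± 1.58 CPM. Hspa4, an abundant HSP110, went from 336 ± 19.1 to 353 ± 7.08 CPM. Hspbp1 stood at 20.6 ± 2.31 and 19.4 ± 1.65 CPM.

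By class, log2 fold changes were above 0 for 19 of 25 tested DNAJC genes, 7 of 12 DNAJB, 3 of 4 DNAJA, 8 of 11 HSP70, 2 of 3 HSP110 and all 3 HSP90 genes. Both tested small HSPs, Hspb6 and Hspb9, were below 0, at -0.21 and -0.22. Some weakly counted genes also had wide fitted values. Dnajc6, the auxilin of clathrin uncoating, had 23 to 74 counts per library and a log2 fold change of 0.37 (SE 0.22). Dnajb7 (-0.26), Dnajb8 (0.26) and Hspa1l (0.27) had at most 53 counts in a library, and 70.8% of the 101-base stretches of Hspa1l occur in another annotated gene. Dnajc12 had 24 to 68 counts and -0.050.

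The 7 members that were not tested were Hspb1, Hspb2, Hspb3, Hspb7, Hspb8, Dnajb3 and Dnajc22. Hspb3 and Hspb8 had 0 counts in every library, which at a floor of 3 counts allows 0.119 to 0.303 CPM per library. Hspb1 (HSP27), a major heat-inducible small HSP in other tissues, had 3, 5 and 1 counts in WT and 9, 10 and 4 in Top3b-KO. For Hspb1 and Hspb7 the knockout CPM did not overlap those of WT, at these very low counts. The unscaled Hspb1 counts did overlap, and Hspb7 had 5 counts in both WT replicate 3 and Top3b-KO replicate 3. How often untested genes separate in this way was not counted, so the separation is a description only. Hspb7 of heart and muscle had 4 to 11 counts, and Hspb2 had 2 and 1 counts in single libraries and 0 in the rest. Thus 5 of the 7 small HSPs had at most 11 counts in any library.

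Other genes of the chaperone pathway, and immediate early genes, showed the same lack of calls. They came from lists that were chosen with earlier results of these data known and that share some genes. In each of 8 lists 0 members passed the threshold by edgeR in either direction, and in 7 of the 8 lists 0 had an unadjusted p under 0.05. The 24 HSP90 cochaperones had a median log2 fold change of -0.011, with 11 above 0, and their most abundant member Cdc37, which brings kinases to HSP90, had -0.019. The 8 subunits of the cytosolic chaperonin TRiC had a median of 0.016, with Cct2 at 0.052, and the 8 prefoldin genes a median of -0.039, with Pfdn5 at -0.052.

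Of the 13 HSP70 exchange factors and partners, 5 were above 0, and Bag6 and Hyou1 had -0.0075 and 0.023. The 12 mitochondrial chaperones and proteases had a median of -0.0032, with Yme1l1 at 0.11 and the mitochondrial HSP90 Trap1 at 0.0026. Hsf1, the transcription factor of the heat shock response, was at 61.5, 51.1 and 52.0 CPM in WT against 59.6, 51.3 and 58.4 CPM in Top3b-KO. The fitted log2 fold change was 0.038. HSF1 target genes outside the families had a median of 0.0115 over 16 tested genes, with 9 above 0 and with Ubb at -0.074.

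Immediate early genes were the list in which single members had low unadjusted p-values. Of 19 genes, 4 were under 0.05 (21.1%, against 5.52% of all tested genes), Jund, Klf2 and Junb below 0 and Klf6 above, and 0 passed over all genes by edgeR. Jund, an AP-1 subunit, was at 86.4, 97.9 and 94.6 CPM in WT against 82.7, 68.7 and 77.4 CPM in Top3b-KO, without overlap. Its log2 fold change was -0.29 (SE 0.079) and the adjusted p 0.552 by edgeR. Klf2, which keeps lymphocytes quiescent, had -0.27, Junb -0.20 and Klf6 0.19, with adjusted p of 0.670, 0.840 and 0.829 by edgeR.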

How the data were processed

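The authors deposited 1 table of expected counts per gene symbol, with 6 columns, 3 WT and 3 Top3b-KO. STAR and the build mm39 are listed, without a STAR version, per the submitters' processing notes. How reads were counted, and with which strand setting and annotation, no source used here gives, so genes overlapping on opposite strands and near-identical copies are uncertain. The protocol lists a pair of library kits, and which one each library had is not settled.

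Fractional values (tolerance 1e-06) stood in 72 symbols, 0 of them members, and all were rounded. Genes were kept by filterByExpr (18716 tested). The main test was edgeR 4.0.16's quasi-likelihood F test (TMM, robust, genotype only, two-sided, Benjamini-Hochberg over all tested genes, threshold 0.05), in R 4.3.3. A standard error is the log2 fold change over the square root of F, and 95% intervals use the test's degrees of freedom. CPM errors are SDs over 3 libraries, floors of 3 counts cover counting error only, and depth sets the precision of weakly counted genes. Alternatives were DESeq2 1.42.0, limma-voom (3.58.1), other scalings and filters, robust=FALSE, a replicate block and leaving out each library. Lengths and transcripts came from GENCODE M21, which held all 71 members.

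The members and lists were chosen with earlier results of these data known. Named genes were Top3b, a core of members by role, members with an unadjusted p under 0.05, the 8 with the widest range at 1 CPM or more, untested members, and for each list the low-p members or otherwise the most abundant. One gene of the core, Hspb11, had no row under that symbol. Any other gene was chosen after its values were seen.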

Additional observations from a re-analysis of the deposited data

How the results depend on the processing

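Under all 14 alternatives 0 members passed the threshold, and Top3b stayed lower and past it. Beside 2 genes of all tested, 44 passed when no filter was applied, 6 by DESeq2, 1 with limma-voom, 1 with robust=FALSE, 41 with the replicate block and 1 to 32 with a library left out (32 without WT replicate 3). Members with an unadjusted p under 0.05 numbered 2, but 1 with DESeq2, 4 with the replicate block and 0 (without Top3b-KO replicate 2) to 4 (without WT replicate 1 or 3) with a library left out. With the block, Hspa1a and Hspa1b joined Dnajb4 and Dnajc4. For Hspa1a the unadjusted p went from 0.66 to 0.0016 (adjusted 0.21 by edgeR), and for Hspa1b from 0.75 to 0.018 (adjusted 0.57). The labels state no design, so the main fit had no block. Over genes, WT and Top3b-KO libraries of one number had deviations correlated at 0.217, -0.0108 and 0.0271. The 0.217 of replicate 1 was the highest of all pairings, while WT replicate 2 correlated best with Top3b-KO replicate 3, at 0.106. Deviations from a mean of 3 libraries constrain each other, so these values cannot decide whether libraries of one number share a batch. The median over members ran from 0.021 to 0.079 with a library left out, members above 0 from 38 to 47, and ER members above 0 from 6 to 8. The counts of members above 0, of ER members above 0 and of low unadjusted p were added after the data were seen. The matching shares of all tested genes were counted for the main fit only, so under the alternatives these counts have no background. The sign changed, only with a library left out, for 14 of the named members, none of them past the threshold, and the cause was not tested. Their log2 fold changes ran from -0.026 to 0.060 for Dnaja3, -0.11 to 0.15 for Dnajb1, -0.032 to 0.093 for Dnajb11, -0.0022 to 0.083 for Dnajb6, -0.0041 to 0.20 for Dnajc10, -0.22 to 0.15 for Dnajc12, -0.028 to 0.065 for Dnajc8 and -0.0012 to 0.20 for Hsp90b1. They ran from -0.20 to 0.96 for Hspa1a, -0.27 to 0.90 for Hspa1b, -0.25 to 0.51 for Hspa1l, -0.12 to 0.13 for Hspa8, -0.015 to 0.12 for Hspd1 and -0.11 to 0.27 for Hsph1. The shallowest library was Top3b-KO replicate 3, with a floor of 0.303 CPM.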
